A study of Rattus norvegicus with 25 samples.

Results

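In small RNA sequencing of muscle mitochondria, 8 mature miRNAs known from immune cells were examined. They are listed as rno-miR-146a-5p, rno-miR-146b-5p, rno-miR-150-5p, rno-miR-150-3p, rno-miR-142-5p, rno-miR-142-3p, rno-miR-155-5p and rno-miR-223-3p, and the species prefix is left out from here on. They were chosen by name as known immune and leukocyte miRNAs, 8 of the 764 rat entries of the count table. 5 of the 8 had at least 1 count in some library, as had 260 of the 764 entries.

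The trained rats were male Wistar-Kyoto rats trained by treadmill running on 5 days per week for 4 weeks (13 libraries). The sedentary rats, also male Wistar-Kyoto, spent equal time on a treadmill standing still and were handled alike (12 libraries). All rats were 5 weeks old when allocated at random. Every library came from mitochondria of the red portion of the gastrocnemius, an oxidative hindlimb muscle. Mitochondria were isolated from about 100 mg of tissue with a magnetic kit sold for mouse tissue. They were then exposed for 1 h at 37 °C to RNase A (312 µg), which digests RNA outside the organelle, before RNA was extracted. No whole-muscle library and no library without RNase A was analysed here, so a count does not place a miRNA inside mitochondria. Library totals ran from 26793 to 202388 counts in trained rats and from 12181 to 186006 in sedentary rats. In such bulk material, fewer cells of a type and less RNA per cell cannot be told apart.

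As background, miR-146a and miR-146b are induced by NF-κB downstream of Toll-like receptors and repress the adaptors TRAF6 and IRAK1, a negative feedback on inflammatory signalling. miR-150 is abundant in mature B and T cells and represses the transcription factor Myb. miR-142 is made in nearly all blood cell lineages, miR-223 in myeloid cells and platelets, and miR-155 in activated lymphocytes and macrophages. A miRNA selects its targets mainly through the seed, bases 2 to 8 of the mature strand.

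Mature sequences from RefSeq (GRCr8) were matched for 6 of the 8 miRNAs and are shown 5′ to 3′ with the seed in capitals. The miR-146 pair comes first because the counts of its members are compared with each other, and the other 4 are the miRNAs at or near 0.
miR-146a-5p: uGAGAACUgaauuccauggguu
miR-146b-5p: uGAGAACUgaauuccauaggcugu
miR-142-5p: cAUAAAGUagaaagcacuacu
miR-142-3p: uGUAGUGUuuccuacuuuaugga
miR-223-3p: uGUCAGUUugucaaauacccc
miR-155-5p: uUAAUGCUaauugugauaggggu

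miR-146a-5p and miR-146b-5p carried the same seed and the same first 17 bases. Over the 22 positions that both have, 20 were identical. With positions counted from 1 at the 5′ end and the miR-146a-5p base written first, the differences were G18A and U21C, and miR-146b-5p was longer by 2 bases. No other entry among the 687 with a matched sequence had this seed, and the seeds of miR-155-5p, miR-223-3p and both arms of miR-142 were each held by no other entry. The miR-146 genes lie apart in GRCr8, with mature miR-146a-5p at chr10:28350053-28350074 on the minus strand and mature miR-146b-5p at chr1:255144874-255144897 on the plus strand.

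The feedback miRNAs of the miR-146 family were the most abundant of the 8. miR-146a-5p held 3762 counts over all libraries, 51.7% of the counts of the 8 miRNAs, and miR-146b-5p held 2334, or 32.1%. miR-150-3p followed with 827 counts and miR-150-5p with 346. By mean CPM (the count scaled to a common library total) miR-146a-5p ranked 48 among all entries, miR-146b-5p 56, miR-150-3p 72 and miR-150-5p 108.

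The remaining 4 miRNAs were at or near 0. miR-142-5p had 4 counts, all in sedentary library 30. miR-155-5p, miR-223-3p and the 3p arm of miR-142 had no count among 2094773. A count of 0 allows up to 2.63 CPM over the trained libraries together and 3.14 CPM over the sedentary ones, and between 14.8 and 246 CPM in 1 library, for counting error alone. The sources used here do not say whether entries were emptied by a filter, so these zeros describe the table. The label of the group as leukocyte markers is therefore one of name, and these counts do not identify leukocytes. The blood-lineage miR-142, the myeloid miR-223 and miR-155 were at 0 or in 1 library, and nearly all counts were of miR-146 and miR-150.

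miR-146a-5p had between 0 and 217 counts in trained libraries (median 100) and between 0 and 928 in sedentary libraries (median 167). As a level, that was 0 to 3807 CPM in trained rats (median 932) and 0 to 4989 CPM in sedentary rats (median 2417). The groups overlapped over nearly their whole range. 9 of 13 trained and 9 of 12 sedentary libraries reached 10 counts. The other 7 libraries, trained 6, 17, 18 and 26 and sedentary 15, 19 and 29, had 3 counts or fewer, and the lowest of the remaining libraries had 36. Trained library 26, with a total of 137114, had 2 counts, whereas trained library 1, with a total of 26793, had 36.

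miR-146b-5p had between 0 and 227 counts in trained libraries (median 28) and between 0 and 809 in sedentary libraries (median 47). Its level was 0 to 2133 CPM in trained rats (median 906) and 0 to 7630 CPM in sedentary rats (median 530), so the median and the maximum pointed opposite ways. 7 of 13 trained and 7 of 12 sedentary libraries reached 10 counts, and the other 11 had 3 or fewer. Among those with at least 10 counts the lowest was 24. Sedentary libraries 16 and 30 stood highest. miR-146b-5p was also among the least even of the 76 entries with enough counts to be tested. Its coefficient of variation in CPM was 1.63, which 1 tested entry exceeded, while miR-146a-5p was near the middle at 0.868 (median of the tested entries 0.866).

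**Figure D1:**
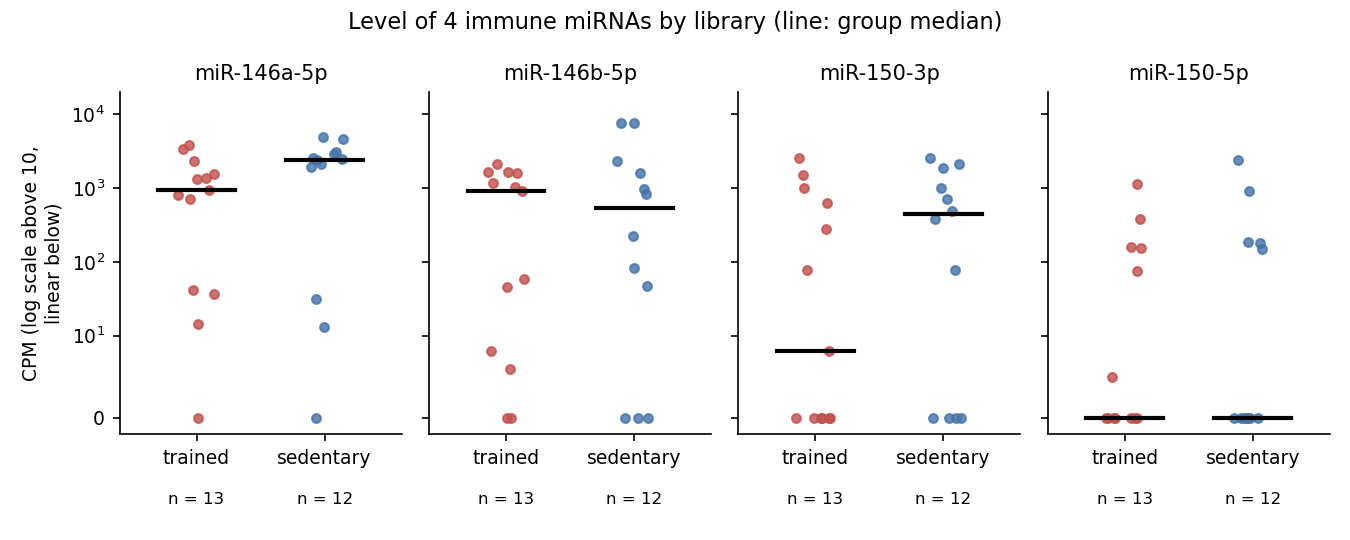
Level of the 4 miRNAs with more than 4 counts, in CPM (log scale above 10, linear below), with 1 point per library, trained rats (n = 13) left of sedentary rats (n = 12), and the group median as a line. The groups overlapped for all 4, and each miRNA had libraries at or near 0 in both groups.

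The libraries low in miR-146a-5p were mostly not the ones low in miR-146b-5p. Both reached 10 counts in 10 libraries, miR-146a-5p alone in 8, miR-146b-5p alone in 4 and neither in 3. In all 12 libraries where 1 of them reached 10 counts alone, the other had 3 counts or fewer. Trained library 27 had 144 counts of miR-146a-5p and 0 of miR-146b-5p, and sedentary library 12 had 197 and 0. Trained library 26 showed the opposite, with 2 counts of miR-146a-5p and 227 of miR-146b-5p, as did trained library 18 with 0 and 119. Depth is the same for both, as they were counted in the same library.

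Summed, the 2 miRNAs reached 10 counts in all but 1 of the 13 trained libraries and all but 2 of the 12 sedentary ones. Trained library 17 had 3 counts of the sum, and sedentary libraries 15 and 19 had 5 and 1. The sum ran from 41.3 to 5473 CPM in trained rats (median 1670) and from 79.6 to 12197 CPM in sedentary rats (median 2928).

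Of 40 pairs of tested entries with a common seed, the miR-146 pair had the most libraries with 1 member at 10 counts or more and the other at 3 or fewer, 12 of 25. The next was miR-25-3p with miR-92a-3p, at 10. Pairs whose members both reached 10 counts in all 25 libraries, such as let-7b-5p with let-7i-5p, could show no such split. The number of splits depends on how often each member is low, here in 7 libraries for miR-146a-5p and 11 for miR-146b-5p. The rank among pairs therefore does not show a trait of the miR-146 pair. Such a split was not rare in the table: 5.54% of all 2850 pairs of tested entries showed it in 12 or more libraries, and 45 of the 76 tested entries had 3 counts or fewer in at least 1 library. Across the 25 libraries the levels of miR-146a-5p and miR-146b-5p had a Spearman correlation of 0.20, a weak value between entries that share library and depth. The median was 0.10 over all pairs of tested entries and 0.14 over the 40 pairs with a common seed, and 64.1% of all pairs lay below the miR-146 value. A read that ends before position 18 is the same for both miRNAs. The sources used here do not say how such reads were counted, so the division between the miR-146 entries is uncertain and the part of read assignment was not tested.

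The share of miR-146a-5p in the sum of both was compared in libraries with at least 10 counts of the sum. The mean was 60.5% ± 40.5 for trained (SD, n = 12) and 66.1% ± 35.1 for sedentary rats (SD, n = 10), and ran from 0% to 100% in trained and from 1.33% to 100% in sedentary rats. The difference of -5.64 percentage points fell short of the threshold (permutation test, two-sided, p = 0.730, adjusted p = 0.730 over the 2 shares tested). It was 24.7 points among rats numbered 14 to 32 in the library titles and was -25.7 among those numbered 1 to 13, with neither passing (exact permutation tests, p = 0.462 and p = 0.156).

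**Figure D2:**
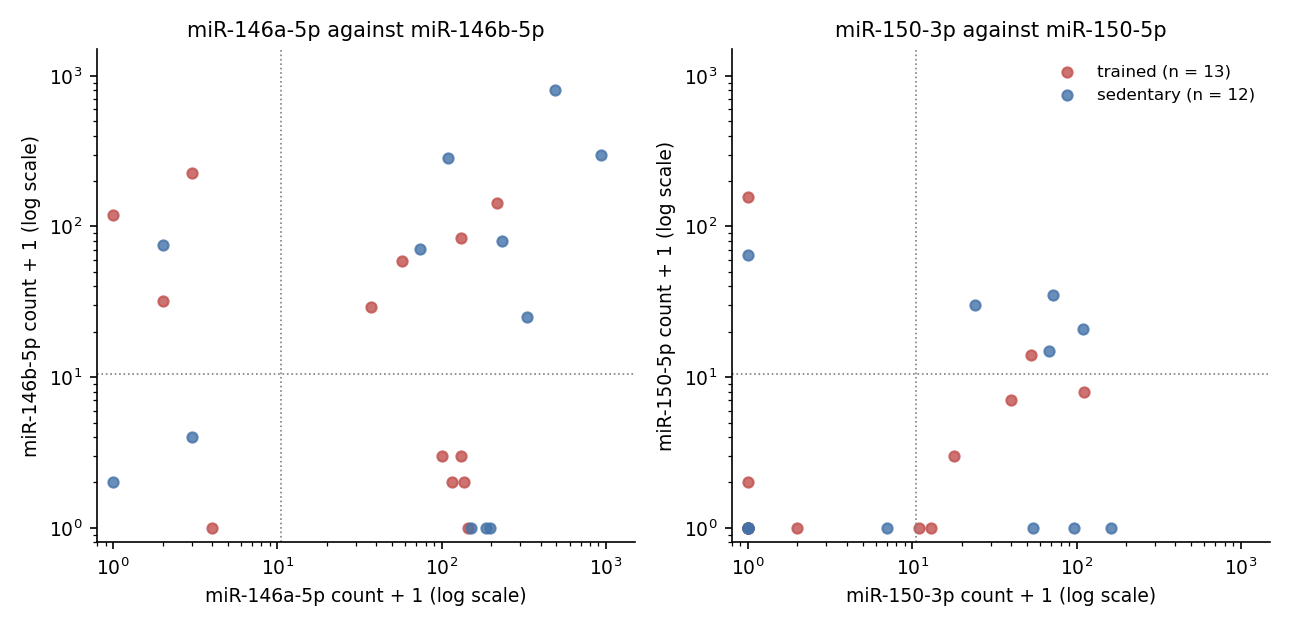
Counts plus 1 on log scales, with 1 point per library (trained n = 13, sedentary n = 12), for miR-146a-5p against miR-146b-5p on the left and for the 2 arms of miR-150 on the right; dotted lines mark 10 counts. For miR-146, 12 libraries lie in the corners where 1 member has at least 10 counts and the other at most 3.

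miR-150 was seen mostly through its 3p arm, although the 5p arm is the one usually described as the active strand in lymphocytes. Pooled over libraries the 3p arm took 70.5% of the miR-150 counts, 56.6% in trained and 78.4% in sedentary rats. Without trained library 26 the pooled trained share was 89.3%, above the sedentary one. miR-150-3p exceeded miR-150-5p in 14 libraries, 7 trained and 7 sedentary, and was lower in 4, 2 trained and 2 sedentary. The other 7 libraries had no count of either arm.

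2 of 13 trained and 5 of 12 sedentary libraries reached 10 counts of miR-150-5p, and its median was 0 counts in both groups. 45.1% of its counts came from trained library 26, which had 156 counts of the 5p arm and 0 of the 3p arm. Sedentary library 11 was alike, with 64 and 0. The opposite split occurred in sedentary library 29, with 0 counts of the 5p arm and 162 of the 3p arm, and in sedentary library 16, with 0 and 96. Sedentary library 19, the shallowest at a total of 12181, had 29 and 23.

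The 3p share of miR-150 was compared in libraries with at least 10 counts of both arms together. The mean was 78.6% ± 35.4 for trained (SD, n = 7) and 72.4% ± 35.0 for sedentary rats (SD, n = 8), and ran from 0% to 100% in both groups. The difference of 6.23 percentage points fell short of the threshold (exact permutation test, two-sided, p = 0.729, adjusted p = 0.730 over the 2 shares tested). The difference was -4.11 points without sedentary library 11 and 19.3 points without trained library 26.

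miR-150-3p had between 0 and 110 counts in trained libraries (median 1) and between 0 and 162 in sedentary libraries (median 38). Its level was 0 to 2528 CPM in trained rats (median 8.17) and 0 to 2570 CPM in sedentary rats (median 438). 6 of 13 trained and 7 of 12 sedentary libraries reached 10 counts, and the ranges of the groups coincided.

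The main comparison asked whether these miRNAs differed in muscle mitochondria after 4 weeks of training. 3 of the 8 had enough counts for the test across the table, miR-146a-5p, miR-146b-5p and miR-150-3p, and 0 of them passed. Over all 76 tested entries the share called was 0.0% (edgeR quasi-likelihood test, Benjamini-Hochberg adjusted p under 0.05), with 1 entry at an unadjusted p under 0.05. DESeq2 called 0 of 260 with 8 such entries, and limma-voom 0 of 76 with 14. miR-150-5p and the entries at or near 0 did not enter the test.

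miR-146a-5p averaged 1252 ± 1250 CPM over the trained libraries (SD, n = 13) and 2259 ± 1635 CPM over the sedentary ones (SD, n = 12). The edgeR log2 fold change, trained minus sedentary, was -0.55 with an SE of 0.89 and a 95% interval of -2.33 to 1.24 (adjusted p = 0.971). miR-146b-5p averaged 789 ± 802 CPM in trained and 1771 ± 2822 CPM in sedentary rats (SD, n = 13 and 12), and edgeR put it at -0.82 with an SE of 1.08 and a 95% interval of -2.99 to 1.34 (adjusted p = 0.971). miR-150-3p averaged 465 ± 784 CPM in trained and 772 ± 928 CPM in sedentary rats (SD, n = 13 and 12), and edgeR put it at -0.64 with an SE of 1.14 and a 95% interval of -2.93 to 1.65 (adjusted p = 0.971).

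The intervals are wide, and each includes a change of 1 on the log2 scale in both directions. All 3 values were negative, with a median of -0.64. Over all tested entries, 51.3% were negative and the median was -0.0081, but these cover abundant entries as well. Entries at a mean level like that of the 3 included other negative values, such as -1.18 for miR-328a-3p and -1.25 for miR-21-5p. Some were positive, such as 1.15 for miR-25-3p. A negative sign was therefore not particular to the immune miRNAs. Scaling by library totals alone moved that general median to -0.29, and the 3 values then were -0.86, -1.17 and -0.73.

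Detection gave a comparison for the entries with too few counts as well. Of 215 entries that reached 10 counts in some but not all libraries, 0.0% differed in detection between the groups (Fisher's exact test, two-sided, adjusted p under 0.05), with 2 at an unadjusted p under 0.05. The lowest p among the immune miRNAs was for miR-150-5p, at 2 of 13 trained and 5 of 12 sedentary libraries (Fisher's exact test, p = 0.202, adjusted p = 1). miR-150-3p had p = 0.695, and miR-146a-5p and miR-146b-5p had p = 1.

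Together the 8 miRNAs made up a mean of 0.265% ± 0.205 of each trained library (SD, n = 13) and 0.512% ± 0.416 of each sedentary library (SD, n = 12). The lowest, median and highest libraries were 0.00413%, 0.237% and 0.663% in trained, against 0.00796%, 0.396% and 1.34% in sedentary rats. Sedentary libraries 30 and 16, at 1.34% and 1.31%, stood above all others. The difference in means was -0.504 percentage points among rats numbered 14 to 32, and 0.0320 among rats numbered 1 to 13.

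These number ranges were examined because library depth followed them. From number 14 up, trained libraries had totals of 72553 to 202388 and sedentary libraries 12181 to 106661. Up to number 13, trained libraries had 26793 to 43510 and sedentary libraries 30527 to 186006. The boundary was known from earlier work on these data, where it was set after totals were seen, and the labels do not say whether the numbers mark a batch.

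miR-150-3p had group differences of opposite sign in the 2 ranges. Among rats numbered 14 to 32, the 7 trained libraries had 1, 0, 0, 0, 12, 0 and 0 counts and the 6 sedentary libraries 0, 96, 23, 162, 108 and 67. Trained libraries were near 0 there and were mostly the deeper ones, and 5 of 6 sedentary libraries lay above all 7 of them. Depth differed between the groups within this range, so depth and group cannot be told apart here. Among rats numbered 1 to 13, the 6 trained libraries had 0, 10, 39, 17, 52 and 110 counts and the 6 sedentary libraries 53, 0, 71, 0, 0 and 6. As levels, the trained mean at numbers 14 to 32 was 12.1 ± 28.6 CPM (SD, n = 7), against 1385 ± 972 CPM for sedentary libraries (SD, n = 6). Up to number 13 the trained mean was 994 ± 923 CPM, against 159 ± 221 CPM for sedentary libraries (SD, n = 6 each).

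**Figure D3:**
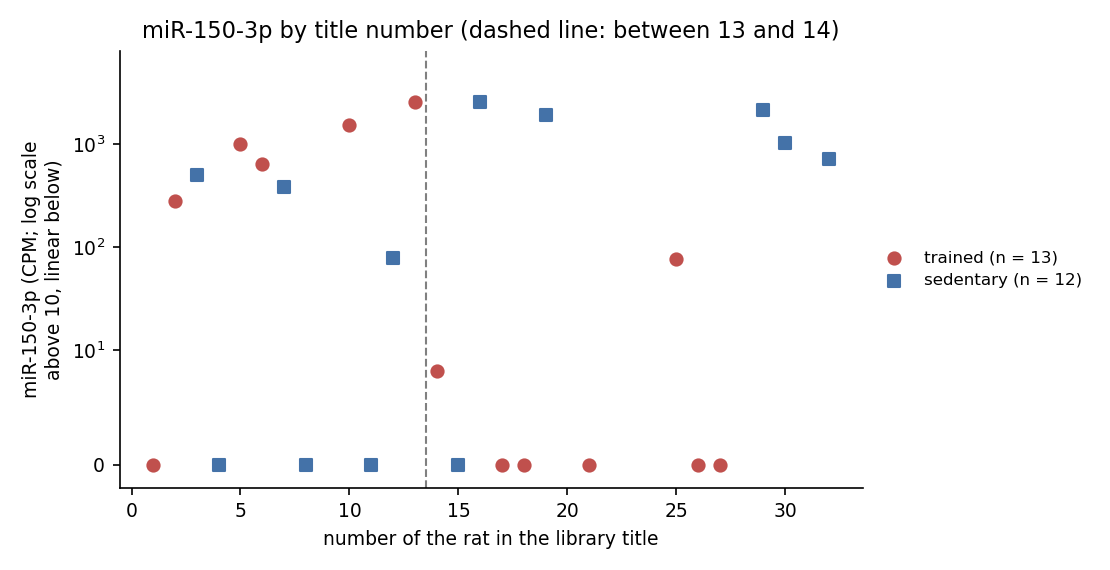
Level of miR-150-3p in CPM (log scale above 10, linear below) against the number in the library title, with 1 point per library; circles are trained rats (n = 13), squares sedentary rats (n = 12) and the dashed line parts numbers 13 and 14. To the right of the line the highest trained library was at 76.6 CPM while 5 of 6 sedentary libraries were above it.

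In a joint fit of group, number range and their interaction over all 25 libraries, chosen after these values were seen, miR-150-3p was the 1 entry of 76 (1.32%) whose group difference changed between the ranges past the threshold. The change, 14 to 32 minus 1 to 13, was -8.78 on the log2 scale (SE 2.25, edgeR p = 0.000277, adjusted p = 0.0211). The fitted trained minus sedentary value was -6.01 at numbers 14 to 32 (SE 1.66, edgeR adjusted p = 0.0246), where 3.95% of entries were called, and 2.77 at numbers 1 to 13 (SE 1.51, edgeR adjusted p = 0.994), where 0.0% were. Since several libraries are at 0, these fitted sizes depend on the prior count and are not bounds. On log2 CPM the change was -6.75, and a two-sided exact permutation of group labels within the ranges gave p = 0.000834, unadjusted. The fit and the permutation used the same counts that led to them. Their p-values therefore describe the pattern and are no independent test of it.

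The call was lost in 4 alternatives, in each of which the change stayed negative. It was -8.52 without sedentary library 11 (edgeR adjusted p = 0.0520) and -8.69 without sedentary library 12 (edgeR adjusted p = 0.0526). With the total count as a covariate it was -11.1, and its SE was wider at 3.23 (edgeR adjusted p = 0.0969). With the number as a continuous term it was -3.79 per 10 numbers (SE 1.78, edgeR adjusted p = 0.577). The number of entries whose difference changed was 2 without trained library 26, 5 without sedentary library 29 and 0 without sedentary library 11 or 12.

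The miR-146 entries showed no such call. Their changes, again 14 to 32 minus 1 to 13, were 0.070 for miR-146a-5p (SE 1.79, edgeR adjusted p = 0.969) and -1.83 for miR-146b-5p (SE 2.16, edgeR adjusted p = 0.757). miR-146b-5p fitted at -1.49 in the range 14 to 32 and at 0.34 in the range 1 to 13, neither past the threshold (edgeR adjusted p = 0.667 and 0.994). Other methods gave miR-146b-5p a larger change of the same sign as miR-150-3p. It was -5.99 with limma-voom (p = 0.0145, adjusted p = 0.179) and -3.84 on log2 CPM (exact permutation p = 0.0875, unadjusted). For miR-146a-5p these values were positive, at 0.96 and 1.31. miR-150-5p, in DESeq2 alone, was at -5.50 (adjusted p = 0.615).

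**Figure D4:**
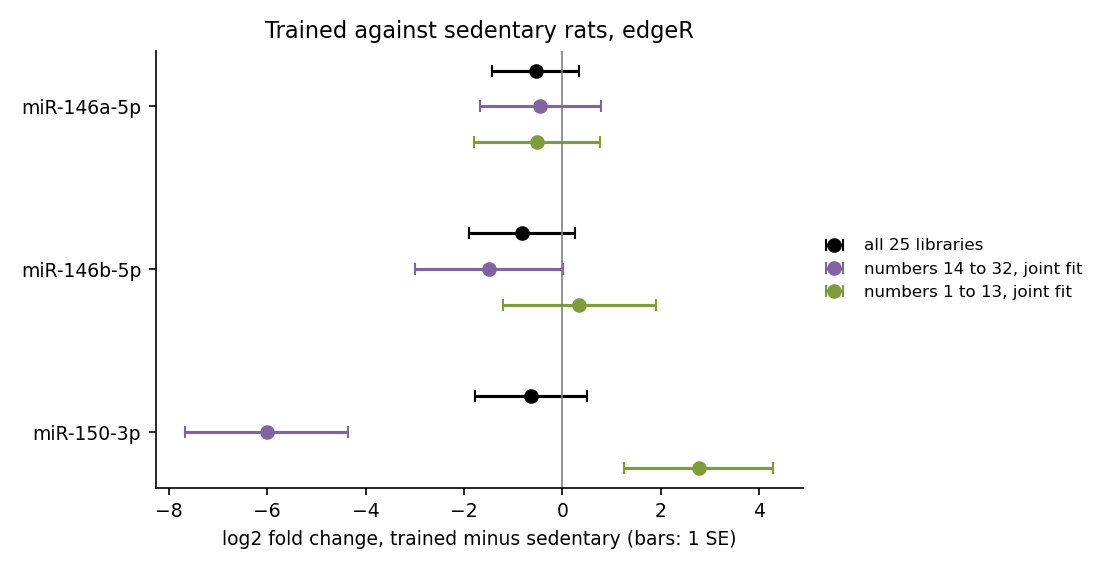
Log2 fold change, trained minus sedentary, of the 3 tested miRNAs from edgeR over all 25 libraries and, from the joint fit, within numbers 14 to 32 and 1 to 13; bars are 1 SE. The pooled values of -0.55, -0.82 and -0.64 lie within 1 SE of 0, while miR-150-3p was at -6.01 and 2.77 in the 2 ranges.

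Other miRNAs of immune cells were counted for comparison. Of the opposite arms of miR-146a, miR-146b, miR-223 and miR-155, only miR-223-5p had counts, 11 in trained library 2, while miR-223-3p, usually the abundant arm, was at 0. Of 12 further lymphoid and myeloid miRNAs, 7 had a count and 2 were tested, with 0 passing. These were miR-92a-3p of the miR-17-92 cluster, at a log2 fold change of -1.12 (SE 1.05), and miR-181b-5p, a regulator of lymphocyte development, at 0.14 (SE 1.05) and at -0.22 when scaled by library totals and -0.070 by DESeq2 size factors (edgeR adjusted p = 0.932 and 0.999). In the same lymphoid and myeloid list, miR-17-5p, miR-342-3p, miR-181c-5p, miR-15b-5p and miR-29b-3p were at 0. Of 9 miRNAs described as induced by inflammatory signalling, 5 had a count and 4 were tested, all with negative values and 0 passing. The most abundant were miR-99b-5p, at -0.19 (SE 0.38), and miR-125a-5p, at -0.77 (SE 0.65; edgeR adjusted p = 0.973 and 0.916). miR-132-3p, miR-212-3p, miR-147 and miR-187-3p of that list were at 0.

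Markers of other cells are given beside the summed immune miRNAs, and their part in the result was not tested. The red cell list made up 2.21% ± 1.29 of trained and 3.04% ± 1.08 of sedentary libraries, all from miR-486, as miR-451-5p and both arms of miR-144 were at 0. The endothelial list took 0.583% ± 0.257 and 0.808% ± 0.524, and the smooth muscle list 2.30% ± 0.722 and 3.21% ± 1.63, in trained and in sedentary rats. The skeletal muscle list took 29.0% ± 5.97 in trained and 24.7% ± 7.95 in sedentary rats (all SD, n = 13 and 12). Per library these shares ran from 1.01% to 5.27% (trained) and from 1.00% to 4.75% (sedentary) for red cells, and from 19.4% to 38.6% (trained) and from 16.5% to 41.7% (sedentary) for skeletal muscle.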

How the data were processed

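The authors deposited raw counts per mature miRNA, with empty cells wherever their normalized table has 0, which were read as 0. Their second deposited table is a normalized signal: dividing each library's raw counts by a single factor gives it, to a relative deviation of 1.12e-09. Tools named in the submitters' processing notes are fastp 0.20.0 and DESeq2 1.36. Details not given in the sources used here include the aligner, counting tool, strand setting, genome build, miRNA annotation and treatment of reads matching several miRNAs. Per the labels' protocols, adapters were diluted 0.3-fold and 20 PCR cycles were run; no molecular identifiers are named, so counts are of reads.

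Groups and numbers came from the library titles, and p-values measure the spread between these libraries. Raw counts were tested with the quasi-likelihood method of edgeR 4.0.16 (R 4.3.3, TMM, filterByExpr with minimum count 10 and minimum total 15), trained minus sedentary, adjusted by Benjamini-Hochberg over all tested entries. DESeq2 1.42.0 and limma 3.58.1 gave alternatives. Detection used Fisher's exact test (scipy 1.17.1), and shares used permutation tests, with 100000 resamples or exact where a group had fewer than 10 libraries. The edgeR fits and the permutation tests were tried on simulated data. The simulated counts varied less than those of the tested immune miRNAs, so power for these was not measured. Limits given for a count of 0 cover counting error only.

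All 8 miRNAs are named. For each one tested, the 3 tested entries with the highest Spearman correlation of log2 CPM are named, and of each other list the 2 most abundant tested entries. Single libraries, the other entries at 0 and the next pair by common seed were named after their values were seen. The miRNAs and lists were chosen with earlier results of these data known.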

Additional observations from a re-analysis of the deposited data

Results flagged for a closer look

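The group difference of miR-150-3p differed between rats numbered 14 to 32 and rats numbered 1 to 13. It is listed because the test of the change passed the threshold, at -8.78 on the log2 scale (SE 2.25, edgeR adjusted p = 0.0211 over 76 entries). That test was chosen after the values were seen, so its p-value describes the pattern and is no independent support for it. At least 10 counts were found in 1 of 7 trained and 5 of 6 sedentary libraries at numbers 14 to 32, and in 5 of 6 trained and 2 of 6 sedentary libraries at numbers 1 to 13. By detection alone, the first of these contrasts had p = 0.0291 and the second p = 0.242 (Fisher's exact tests, adjusted p = 1 for both). Depth differed between the groups in both ranges, so depth and group cannot be told apart. With the total count as a covariate the change was -11.1 (SE 3.23) and no longer past the threshold (edgeR adjusted p = 0.0969).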

How the results depend on the processing

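No paired analysis was possible because trained and sedentary libraries share no title number. The fit of number ranges and its alternatives were chosen after seeing the data. Trained against sedentary gave 0 calls in 12 of 13 other settings and without any 1 library, and 66 of 260 (25.4%) with no filter on low counts. None of those calls was 1 of the 8 immune miRNAs: miR-142-5p, from 4 counts in 1 library, came nearest (edgeR adjusted p = 0.0839). Detection gave 0 calls in all 6 other settings and without any 1 library (lowest adjusted p 0.0717).

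miR-146a-5p stayed negative, from -1.51 with limma-voom to -0.44 with the total count as covariate, and from -1.02 to -0.41 without 1 library. miR-146b-5p turned to 0.58 and miR-150-3p to 2.76 among rats numbered 1 to 13, neither past the threshold (edgeR adjusted p = 0.996). Without 1 library they ran from -1.04 to -0.46 and from -0.90 to -0.18. miR-150-3p missed the filter in 5 of the 25 settings without 1 library and at numbers 14 to 32. The miR-150 3p share differed by -3.20 points with at least 1 count of both arms, by -7.20 with at least 30, by -32.3 at numbers 14 to 32 and by 34.2 at numbers 1 to 13, and by -4.11 to 19.3 without 1 library. The miR-146a share differed by 5.08 points with at least 1 count and by 24.7 at numbers 14 to 32, and by -12.8 to -0.147 without 1 library. The cause of these turns was not tested. The summed share differed by -0.293 to -0.171 points without 1 library. The change of miR-150-3p between number ranges was -11.1 with the total count as covariate and -3.79 per 10 numbers with a continuous number, both short of the threshold. It passed with DESeq2 (-8.92, adjusted p = 0.00272), with limma-voom (-9.05, adjusted p = 0.00557) and with library totals only (-9.22, edgeR adjusted p = 0.0180). It was -11.3 to -8.06 without 1 library. Over all entries, DESeq2 called such a change for 5 of 197, against 1 of 76 with edgeR and with limma-voom.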

Other observations

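The entries whose levels followed the tested immune miRNAs most closely over the 25 libraries are given as a description, since all share library and depth. For miR-146a-5p they were miR-486 (Spearman correlation of log2 CPM 0.59), miR-181b-5p (0.55) and miR-3588 (0.49). For miR-146b-5p they were miR-10b-5p (0.46), miR-3596b (0.43) and let-7d-5p (0.42). For miR-150-3p they were miR-30a-5p (0.43) and, at 0.42 each, miR-133a-3p and miR-133c. miR-133a-3p and miR-133c had identical test values (log2 fold change 0.156, SE 0.875 each), so they are not separate neighbours. miR-3588 likewise had the test values of miR-125b-5p (-0.316, SE 0.688 each). miR-3596b and let-7d-5p were nearly alike, at -0.089 (SE 0.980) and -0.059 (SE 0.985). Each had a median of 50 counts and reached 10 counts in 16 libraries, so they are hardly separate neighbours either. In counts this sparse, correlations of this size are weak.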
